A study of Mus musculus with 2 samples.

Results

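The constitutive proteasome genes were examined in dendritic cells grown from mouse bone marrow, which the submitters call GMDC. They were taken as every gene whose symbol in the array's annotation starts with Psma, Psmb, Psmc, Psmd, Psme, Psmf or Psmg, leaving out Psmb8, Psmb9, Psmb10, Psme1 and Psme2, which belong to the inducible immunoproteasome. This gave 44 of 22180 genes, read by 47 probe sets that carry exactly 1 gene symbol. A control culture was set beside a culture grown in conditioned medium. That medium came from E0771, a mammary tumour line of the mouse, after exposure of the line to topotecan, a drug that blocks topoisomerase I. The labels name no strain, age, dose or time, nor the medium of the control. Conditioning by the tumour cells and their treatment with topotecan therefore cannot be told apart. Each culture was measured on 1 array, so no value has a replicate error, no test between the cultures is possible, and every difference is between 2 arrays.

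The proteasome is the protease that degrades most ubiquitin-tagged proteins of the cell. Its core particle is a stack of rings of alpha and beta subunits, and 3 of the beta subunits cut peptide bonds. A regulatory particle caps the core: its base holds ATPases that unfold the substrate, and its lid removes the ubiquitin chain. In cells that see interferon, inducible beta subunits replace the constitutive catalytic ones, which changes the peptides offered on MHC class I molecules, a main task of dendritic cells.

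Values are log2 intensities, so a difference of 1 is 2-fold. A gene was kept when at least 1 of its values reached 4.10, the median of all values on both arrays. This kept 13712 genes and 42 of the 44 proteasome genes. Each gene was read from its probe set with the highest mean. Where a pair of values is given, the control comes first. Levels of different genes are not compared, since probe sets differ in how brightly they read their targets.

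As for the label of the cells, 9 of the 10 measured dendritic cell markers were kept, and with conditioned medium 3 of these passed 2-fold upward and 4 downward. The highest were H2-Aa, a class II chain gene (1.88), and the transcription factor gene Irf4 (1.83), and the lowest Batf3, a transcription factor gene of cross-presenting dendritic cells (-2.03), and the lectin gene Clec10a (-2.01). Itgax, the gene of the surface integrin CD11c, had a value of 8.18 in the control and of 7.15 with conditioned medium. The class II chain gene H2-Ab1 read 10.16 and 11.30. Zbtb46, a transcription factor of conventional dendritic cells, lay below the filter at 3.65 on both arrays. The 10 neutrophil marker genes had levels of 6.14 to 12.16 in the control and 3.03 to 10.53 with conditioned medium. Of these, 9 were at least 2-fold lower with conditioned medium, while Ly6g was higher, at 6.14 and 6.88 (0.74). All 11 measured proliferation genes were lower, 8 of them at least 2-fold, and 4 of 8 macrophage markers were at least 2-fold lower. The other macrophage markers were split: Fcgr1 rose from 11.45 to 12.44 (0.98) and Cd68 rose slightly (0.23), while Mertk (-0.054) and C1qa (-0.19) fell slightly. Of 7 measured tumour epithelial markers 3 were kept: Cdh1, the E-cadherin gene, at 6.42 and 10.21, and the keratin genes Krt19, at 4.44 and 6.59, and Krt8, at 4.96 and 4.77. The other 4 lay below the filter on both arrays, with differences of 0.58 for Epcam, -0.17 for Esr1, -0.21 for Krt18 and -0.56 for Krt14. The part of any of these shifts in the proteasome differences was not tested, and in such bulk RNA fewer cells of a type and less RNA per cell cannot be told apart.

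Most of the constitutive proteasome genes differed little between the cultures. With conditioned medium 0 of the 42 kept members read at least 2-fold higher, against 8.63% of all kept genes, and 1 was at least 2-fold lower, against 6.84%. At 1.5-fold, 4 members were higher, against 16.6% of all kept genes, and 6 were lower, against 17.9%. Differences above 0 were seen in 15 members (44.2% of all kept genes), 26 lay below 0 and 1 was exactly 0; with a curve fitted to the difference by level subtracted, 20 members lay above 0. The median log2 difference of the members was -0.12 (-0.046 with that curve subtracted), with quartiles of -0.38 and 0.13, beside -0.071 for all kept genes, with quartiles of -0.45 and 0.36. The standard deviation of the differences over genes was 0.45 for the members and 0.88 for all kept genes.

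Many of these members read in the upper range of the arrays, so the counts were also taken among brighter genes. Of the 7400 genes with a value of at least 5.48, the 75th percentile of all values, 23.7% were at least 2-fold apart in either direction, while 1 of the 40 members among them was. That cut does not match the members in level. The kept members had a median control value of 8.95, above the control value of 93.0% of all kept genes. The part of level in this contrast was not tested. The technical spread of a difference between arrays could not be measured. Genes with more than 1 kept probe set gave only a spread between probe sets, with a pooled standard deviation of their differences of 0.46 within genes. All of these share the same 2 arrays, so 0.46 is a yardstick and not an error of a difference. Differences of 30 of the 42 members, and of 55.0% of all kept genes, were no larger than 0.46. The spread between cultures was not measured.

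**Figure D1:**
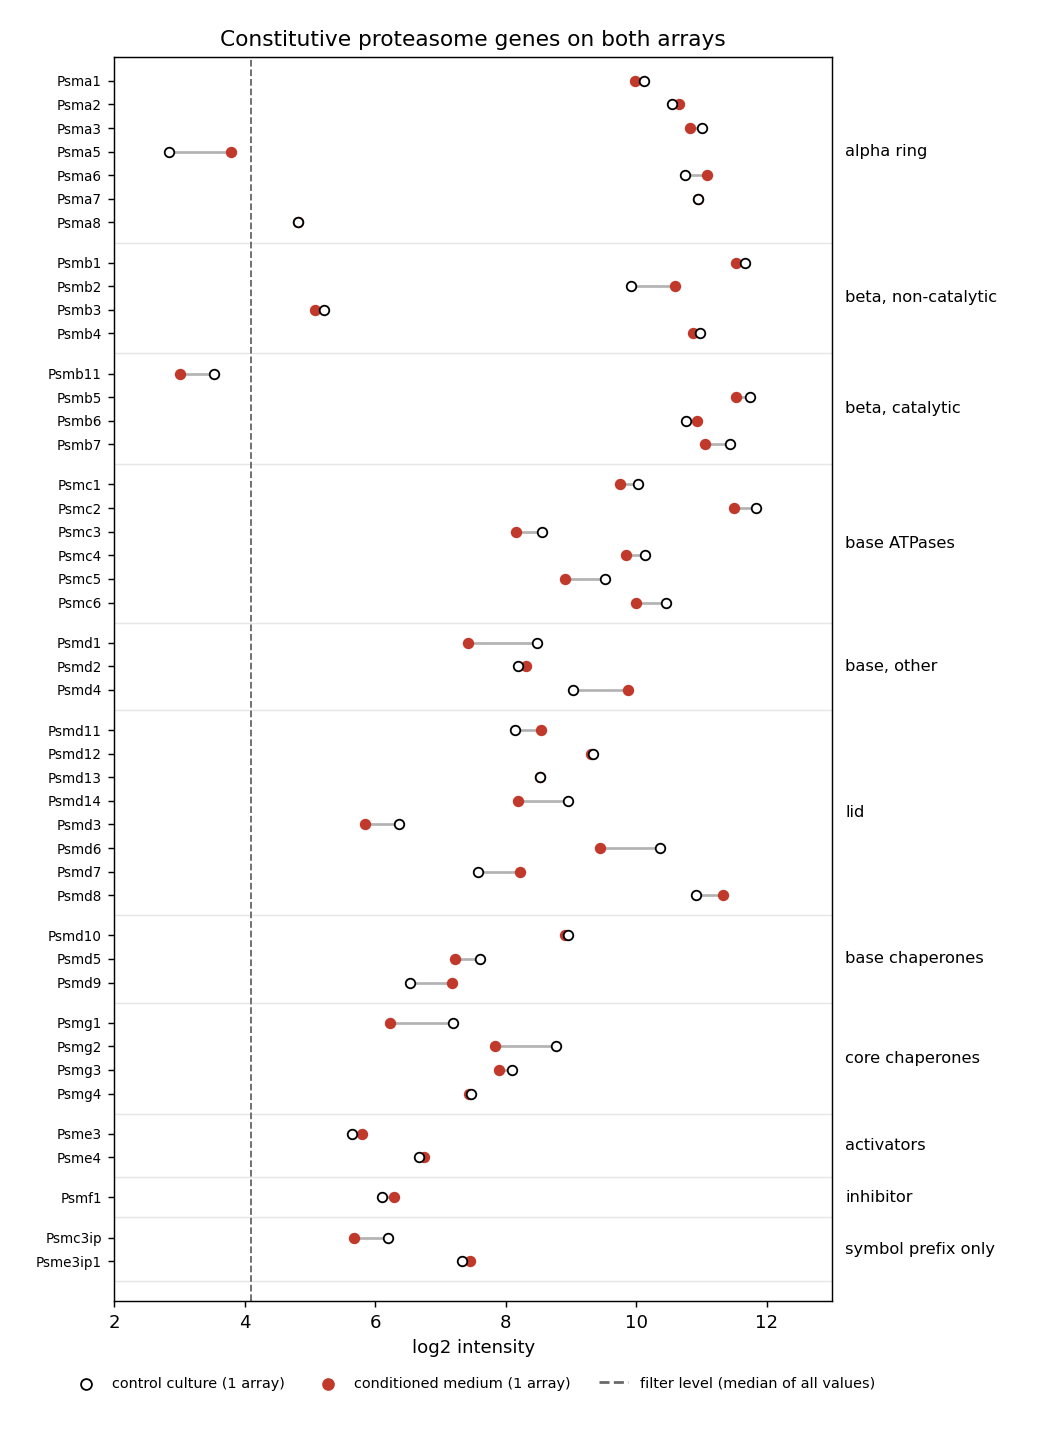
Log2 intensity (horizontal axis) of each of the 44 proteasome genes, by role, in the control culture (open circles) and the culture with conditioned medium (filled circles), 1 array each; the dashed line is the filter level of 4.10. Most pairs of circles lie close together, and the 6 base ATPase genes are all lower with conditioned medium.

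Most of the members farthest apart belonged to the regulatory particle and the assembly chaperones. These classes hold 17 and 7 of the 42 kept members, so this majority is not read as a result about them. Psmd1, the gene of a large scaffold subunit of the base, read 8.48 for the control and 7.41 with conditioned medium. It was lowest of all kept members with a difference of -1.06, or 2.09-fold. A probe set that the annotation gives to both Armc9 and Psmd1 was left out by the rule. Its values were 4.86 and 4.81 (-0.054), and which gene it reads was not tested. Psmd1 passed 2-fold only narrowly, since subtracting that curve moved it to -0.96. Psmg1 and Psmg2, whose products pair to guide alpha ring assembly, stood just inside that fold: Psmg1 read 7.19 and 6.22 (-0.97). Psmg2 read 8.77 and 7.83 (-0.94), and its second probe set also read lower with conditioned medium, at 7.51 and 6.70. The lid gene Psmd6 followed at 10.36 and 9.44 (-0.92). At the other end stood Psmd4, the gene of a ubiquitin receptor of the base, at 9.03 and 9.87 (0.84, or 1.79-fold). Next came Psmb2, a non-catalytic core subunit gene, at 9.93 and 10.59 (0.67). Psmd7, whose product forms the deubiquitinating pair of the lid with that of Psmd14, read 7.57 and 8.22 (0.65), and Psmd9, a base assembly chaperone gene, 6.53 and 7.18 (0.65). The highest and the lowest member thus both encode subunits of the base.

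**Figure D2:**
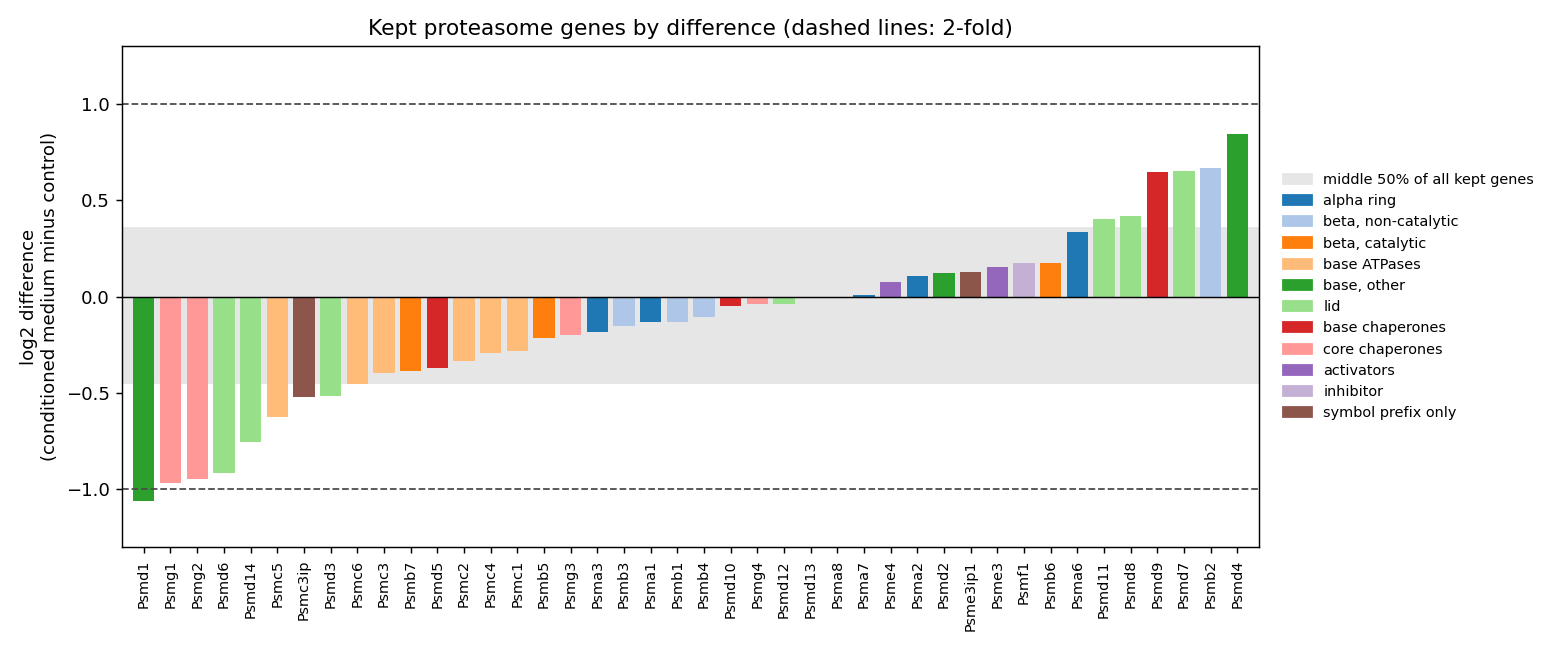
Log2 difference (vertical axis, conditioned medium minus control) of the 42 kept proteasome genes in order of size, coloured by role; the grey band spans the quartiles of all kept genes, -0.45 to 0.36, and dashed lines mark 2-fold. Psmd1 alone crosses a dashed line, and 27 of the 42 bars end inside the band.

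Promoter letters are shown for the lowest member, for both of the higher members whose promoter holds a motif of interferon response elements, and for 2 catalytic subunits whose promoters hold the motif bound by the proteasome gene activator Nfe2l1 and its relatives. RefSeq windows of 300 bases, from 250 before to 50 after a gene's start on GRCm38.p6, were found for 36 of the 44 genes, with 39 windows in all. The 180 bases before the start are printed 5′ to 3′ on the gene's strand, and capitals mark TGACNNNGC or GAAANNGAAA read on either strand.
Psmd1, chr1:86064439-86064618, plus strand: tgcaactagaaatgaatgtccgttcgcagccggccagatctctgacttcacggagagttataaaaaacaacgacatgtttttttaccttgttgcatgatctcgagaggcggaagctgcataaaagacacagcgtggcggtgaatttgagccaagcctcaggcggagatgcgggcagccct
Psmd4, chr3:95042615-95042794, minus strand: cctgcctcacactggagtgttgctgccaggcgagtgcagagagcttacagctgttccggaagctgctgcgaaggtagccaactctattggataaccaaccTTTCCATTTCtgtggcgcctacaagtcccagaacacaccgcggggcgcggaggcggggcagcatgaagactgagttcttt
Psmd9, chr5:123228010-123228189, plus strand: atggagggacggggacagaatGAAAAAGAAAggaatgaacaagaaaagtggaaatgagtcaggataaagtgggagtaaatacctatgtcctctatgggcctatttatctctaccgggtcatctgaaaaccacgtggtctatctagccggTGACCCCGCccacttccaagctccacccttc
Psmb5, chr14:54617996-54618175, minus strand: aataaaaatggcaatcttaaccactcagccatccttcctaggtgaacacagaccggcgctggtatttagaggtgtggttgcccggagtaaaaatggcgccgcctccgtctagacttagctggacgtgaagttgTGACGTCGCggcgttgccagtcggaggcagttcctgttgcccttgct
Psmb6, chr11:70525177-70525356, plus strand: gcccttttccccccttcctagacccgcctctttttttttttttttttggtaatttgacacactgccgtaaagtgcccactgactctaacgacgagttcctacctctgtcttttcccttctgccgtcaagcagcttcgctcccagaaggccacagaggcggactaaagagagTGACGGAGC

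The motif TGACNNNGC stood on either strand in 6 of the 39 windows (15.4%), beside 12.4% of all 32851 windows. The genes were Psmb5, with the motif starting 47 bases before its start, Psmb6 (9 bases), Psmd9 (31), Psme4 (7), Psmc6 (227) and Psmd12 (247). Their differences ran from -0.45 for Psmc6 to 0.65 for Psmd9, on both sides of 0. GAAANNGAAA, a core of interferon-stimulated response elements that was searched after the values were seen, stood in 4 windows (10.3%, beside 3.44% of all windows): those of Psmd4 and Psmd9, printed above, and those of Psmb3 and Psmg4. Psmd4 and Psmd9 were among the 4 highest members, while Psmb3 (-0.15) and Psmg4 (-0.040) were near the middle. The promoters of Psmd4 and Psmd9 were printed because these genes read higher, so no link between motif and direction is read. Of the 6 windows of immunoproteasome genes, 1, that of Psme1, held GAAANNGAAA and 0 held TGACNNNGC. CCAAT stood in 15 windows (38.5%, beside 37.4% of all). In Psmd9, where both of the first motifs occur, they do not overlap. A match describes letters in this window and was not tested as a site.

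Core particle genes were nearly level. Among the 13 kept, 5 lay above 0 and 7 below, with a median difference of -0.10 and a range of -0.38 to 0.67. Of the alpha ring genes, whose products gate entry to the core, 6 of 7 measured were kept, with a median of 0.0039. Psma6 was the highest of them at 10.75 and 11.08 (0.33), and Psma3 the lowest at 11.01 and 10.83 (-0.18). Psma1 (-0.13), Psma2 (0.11) and Psma7 (0.0078) lay between. Psma8, whose product replaces an alpha subunit in the testis, read 4.82 on each array with no difference at all, as did 4.16% of all probe sets. Psma5 lay below the filter, and its 2 probe sets read in opposite directions, at 2.83 and 3.78 and at 2.80 and 2.54. Nothing was read from them.

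The catalytic beta subunits were likewise close on both arrays. Psmb5, whose product cuts after hydrophobic residues, had values of 11.74 in the control and 11.53 after conditioned medium (-0.21). The gene of the caspase-like subunit, Psmb6, read 10.76 and 10.93 (0.17). For the trypsin-like subunit gene Psmb7 the values were 11.44 and 11.06 (-0.38). Psmb11, the subunit of thymic cortical epithelium, lay below the filter, with a value of 3.52 in the control and a difference of -0.52. Among the non-catalytic beta genes Psmb2 stood apart, and Psmb1 (-0.13), Psmb3 (-0.15) and Psmb4 (-0.10) differed by less than 0.46, the spread between probe sets of a gene. Psmb3 read only 5.22 and 5.07, below the 75th percentile of all values (5.48), so little is read from its small difference.

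The inducible counterparts of the catalytic subunits were higher on the same arrays. Psmb8, which replaces the Psmb5 product, read 9.71 and 10.78 (1.07). Psmb9, the counterpart of Psmb6, read 9.43 and 10.57 (1.15). Psmb10, the counterpart of Psmb7, read 10.05 and 12.24 (2.18). The inducible member of each pair therefore exceeded the constitutive one in its difference by 1.28 for Psmb8 over Psmb5, 0.97 for Psmb9 over Psmb6 and 2.56 for Psmb10 over Psmb7. With Psme1 (0.80) and Psme2 (1.08), the subunits of the interferon-inducible activator, 5 of the 5 immunoproteasome genes were higher and 4 of them at least 2-fold. Of all kept genes, 44.2% were higher and 8.63% at least 2-fold higher. The median of the 5 immunoproteasome genes was 1.08, or 1.18 with the level-dependent curve subtracted. This contrast could not be tested with 1 array per culture.

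With conditioned medium, 7402 of the 13712 kept genes and 26 of the 42 kept members lay below 0. All 6 ATPases of the base were among these, each lower by a modest amount. Their median difference was -0.37 and their range -0.62 to -0.28, the narrowest spread of the role groups with 3 or more kept genes (standard deviation over genes 0.13). Psmc5 read 9.53 and 8.90 (-0.62). For Psmc6 the values were 10.45 and 10.00 (-0.45), and for Psmc3 8.55 and 8.16 (-0.40). The other 3 lay close together. Psmc2 read 11.83 and 11.50 (-0.33), with 8.95 and 8.75 from its second probe set. Psmc4 read 10.13 and 9.84 (-0.29), and Psmc1 10.03 and 9.75 (-0.28). Their products form 1 hexameric ring that pulls substrates into the core. Each of the 6 stayed below 0 under every alternative processing that was run, with values between -0.72 and -0.19. Most of these settings could hardly move them. The filters leave a difference as it is, centring shifted each by 0.0039, and the choice of probe set acts only on Psmc2. As deposited, 1 of the 6, Psmc5, exceeded the spread of 0.46 between probe sets of a gene, and Psmc6 also did with quantile normalization (-0.50).

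The remaining subunits of the regulatory particle did not share a direction. Besides Psmd1 and Psmd4, the base holds the scaffold Psmd2, which was nearly level at 8.19 and 8.31 (0.12). Of the 8 lid genes, 3 lay above 0 and 5 below, with a median of -0.020 (0.059 with the level-dependent curve subtracted) and a range of -0.92 to 0.65. Psmd14, the gene of the deubiquitinase that cuts off the ubiquitin chain, read 8.95 and 8.19 (-0.76), whereas its partner Psmd7 was higher. Psmd3 was also lower, at 6.36 and 5.85 (-0.51). Psmd8 read 10.91 and 11.33 (0.42), and Psmd11, whose product helps to join the lid to the core, 8.14 and 8.54 (0.40). Psmd12 (-0.037) and Psmd13 (-0.0038) were level. The standard deviation over genes was 0.58 in the lid, beside 0.19 in the alpha ring.

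Assembly factors of the core were lower in 4 of 4 cases, although Psmg4 changed sign, to 0.066, with the level-dependent curve subtracted. Of all 13712 kept genes, 7402 were lower. After Psmg1 and Psmg2, the 2 other factors, whose products form a second pair, differed less: Psmg3 read 8.10 and 7.90 (-0.20), and Psmg4 7.47 and 7.43 (-0.040). Their median was -0.57. The chaperones of the base were mixed. Psmd5 read 7.60 and 7.23 (-0.37), and Psmd10, which encodes gankyrin, 8.95 and 8.90 (-0.049), while Psmd9 was higher.

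The alternative activators and the inhibitor were nearly level. Psme3, the gene of a nuclear activator, read 5.65 and 5.80 (0.15), and Psme4, the gene of a large activator that caps the core without ATP, 6.68 and 6.75 (0.074). Psmf1, which encodes a proteasome inhibitor and adaptor, read 6.11 and 6.28 (0.17). The rule also took in 2 genes by the prefix of their symbol that encode no part of the complex: Psmc3ip, whose product acts in meiotic recombination, read 6.19 and 5.68 (-0.52), and Psme3ip1, the gene of a protein that binds the Psme3 product, 7.32 and 7.45 (0.13). Without them the median of the remaining 40 members was -0.12.

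Genes that serve the proteasome under other names were taken as lists, to be read against the 15.5% of all kept genes that were at least 2-fold apart in either direction; with lists this short no difference from that share is read. Of 12 kept genes for further parts and partners, 0 passed 2-fold, 5 lay above 0 and 7 below, and the median was -0.068 (0.0053 with the level-dependent curve subtracted). Zfand5, whose product stimulates the proteasome, was the highest at 8.55 and 9.43 (0.88), followed by Fbxo7 (0.75). The deubiquitinase gene Usp14 was the lowest at 7.81 and 7.11 (-0.69), followed by Ecpas, the gene of a proteasome-binding scaffold (-0.49). Pomp, the gene of a chaperone that matures the core, read 10.45 and 10.10 (-0.35), and Sem1, the gene of a small lid subunit, 11.80 and 11.68 (-0.11).

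Ubiquitin shuttles and receptors were kept for 6 genes with a median of -0.15, and 0 of them passed 2-fold. Sqstm1, the gene of the autophagy receptor p62, was the highest (0.66) and Ubqln1 next (-0.041), while Rad23b (-0.55) and Ubqln4 (-0.28) were the lowest. Among 6 regulators of proteasome genes the median was -0.056, but -0.39 with the filter at the 75th percentile and 0.018 with the level-dependent curve subtracted, so it has no settled direction. Nfe2l1, whose product drives proteasome genes when the protease is inhibited, was near level at 5.39 and 5.52 (0.13). The small Maf genes Maff (0.64) and Mafk (0.64) were the highest, and Ngly1, which encodes the enzyme that activates the Nfe2l1 product (-0.65), and Nfe2l2, the oxidative stress regulator (-0.54), the lowest. In the list of ubiquitin activation and the p97 unfoldase, 1 of 7 kept genes passed 2-fold. That gene was Faf1, an adaptor of p97, at 7.08 and 5.20 (-1.88). Ube4b (-0.77) was next, Nploc4 (0.73) and Ubxn1 (0.16) were the highest, and Vcp, the gene of p97 itself, read 11.07 and 10.81 (-0.26).

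**Figure D3:**
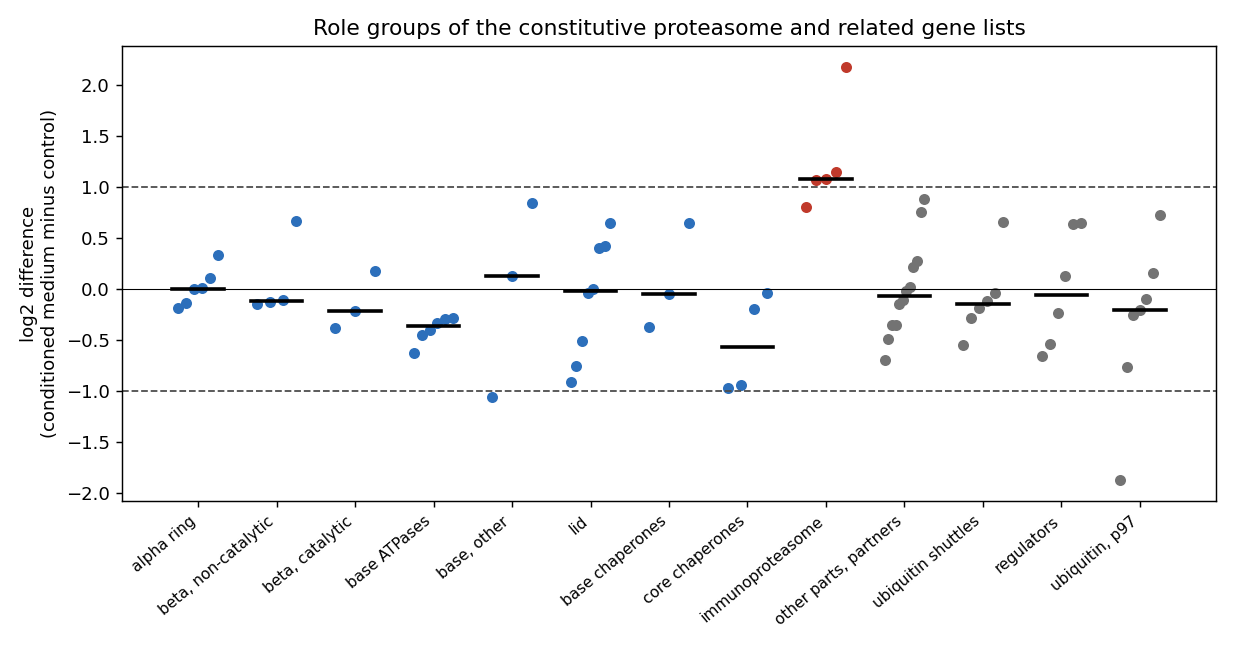
Log2 difference (vertical axis, conditioned medium minus control) of each kept gene in 8 role groups of the constitutive proteasome, in the immunoproteasome genes and in 4 related lists; each point is 1 gene, the short line is the median and dashed lines mark 2-fold. The 5 immunoproteasome genes, from 0.80 to 2.18, lie above 0, and the 6 base ATPase genes, from -0.62 to -0.28, below it.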

How the data were processed

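Total RNA of 2 cultures was labelled as biotinylated cRNA and measured on 1 Affymetrix array each, per the labels' protocols. The authors deposited a table of probe set values, read here as log2 intensity because they ran from -0.26 to 13.50. Affymetrix Expression Console is named in the submitters' processing notes. Neither its version and algorithm nor the log base was found in those sources. Medians of the arrays were 4.10 and 4.09, so a shift of most genes would not be seen. The number of arrays limits the precision.

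Genes were named from the platform annotation (23521 of 41345 probe sets had 1 symbol, 1814 several, and 16010 were not listed), and all 44 members had the same symbol in RefSeq. Of the 46 protein-coding RefSeq genes that meet the rule, 2 had no such probe set: Psma4 and Psme2b. The difference is conditioned medium minus control. With 1 array per group there is no test. Every kept member is named, and of each proteasome-related list the 2 highest and 2 lowest kept genes; genes outside this rule (Pomp, Sem1, Nfe2l1, Vcp, the paired inducible genes and the cell markers) were added after their values were seen. Members and lists were chosen with earlier results of these data known. The counting was tested on simulated data with planted differences past 2-fold and noise well under the spread between probe sets. That checks the code and says nothing about the precision of the counts here. Python 3.11.15, numpy 2.4.6, pandas 2.3.3, statsmodels 0.14.6 and matplotlib 3.10.9 were used. Alternatives were quantile normalization, a subtracted loess curve (fraction 0.3, 3 iterations), centring, the mean or the dimmest of a gene's probe sets, no filter, the 75th percentile or the mean of both arrays as filter, and 1.5-fold or 3-fold as the size.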

Additional observations from a re-analysis of the deposited data

Results flagged for a closer look

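Signal for Psma4, an alpha ring gene, was present in probe sets that no comparison used, because the annotation gives them a second symbol, AY074887. Values of probe set 17517456 were 10.05 (control) and 10.25 (conditioned medium), a difference of 0.20. Those of probe set 17527308 were 5.85 and 6.33, a difference of 0.48. Which of the 2 annotated genes these signals come from was not tested.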

How the results depend on the processing

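The count of members at least 2-fold lower was 1 as reported, 6 at 1.5-fold, 0 at 3-fold and 0 with the loess curve subtracted; the count at least 2-fold higher was 0 as reported and 4 at 1.5-fold. Among all kept genes, 2274 were higher and 2458 lower at 1.5-fold, and 568 and 290 at 3-fold. The median of the kept members and of every role group with 3 or more kept genes moved by less than 0.1 under each alternative run, and with the loess curve subtracted those of the lid (0.059) and the base chaperones (0.028) turned sign, as did the list medians of the regulators (0.018) and of the parts and partners (0.0053). With the loess curve subtracted, Psmd10, Psmd12, Psmd13 and Psmg4 changed sign, and with centring Psmd13 did. Apart from Psma8, which is at 0 as deposited and has no sign, no other kept member changed sign under the alternatives run. Few of these could have changed a sign. The filters shifted no member, and centring shifted each by 0.0039. The choice of probe set acts only on genes with more than 1. List medians moved for the immunoproteasome genes (1.18 with the loess curve), the regulators (-0.39 with the filter at the 75th percentile), ubiquitin activation and p97 (-0.094 with the dimmest probe set), the dendritic cell markers (-0.65 with the mean of probe sets, -0.67 with the dimmest) and the tumour epithelial markers (-0.17 without a filter, 0.55 with the dimmest probe set); the cause was not tested. No paired analysis was possible because each culture has 1 array, and for the same reason no array could be left out.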
